A study of Mus musculus with 30 samples.

Results

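The genes described here encode the proteasome: the subunits of its core particle, the subunits of its regulatory particle, the activators that can cap the core in place of the regulatory particle, and the chaperones that assemble it. They were taken by symbol, as every gene whose name is Psm followed by a letter from a to g and a number and which had a probe set of its own, and 46 of the 8251 genes measured met this rule. Of the 46, 7 form the alpha ring of the core (Psma genes), 10 belong to the beta ring (Psmb genes), 6 are ATPases of the regulatory particle (Psmc1 to Psmc6), 14 carry the name of its non-ATPase subunits (Psmd genes), 3 are activators (Psme1, Psme3 and Psme4) and 4 are assembly chaperones (Psmg1 to Psmg4). The remaining 2, Psmc3ip and Psme3ip1, share the naming pattern but encode proteins named for binding a subunit or an activator, not parts of the particle. Each gene was represented by the probe set that was brightest on average across the 30 arrays, and 8 genes had more than 1 probe set, 58 probe sets in all.

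The proteasome degrades proteins that have been tagged with ubiquitin. Its core is a barrel of stacked alpha and beta rings, with the proteolytic sites on 3 of the beta subunits, and the regulatory particle recognises the ubiquitin chain, removes it, and unfolds the substrate with its ring of ATPases. In cells exposed to interferon, the catalytic subunits Psmb6, Psmb7 and Psmb5 can be replaced in newly built particles by Psmb9, Psmb10 and Psmb8, giving the immunoproteasome, whose peptides are loaded on MHC class I molecules. In heart muscle, this system takes part in the turnover of sarcomere proteins.

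The samples were left ventricles of C57BL/6 mice of 2 months of age, male or female, wild-type or HCM, given either a soy-based or a casein-based diet. HCM is the genotype as the labels give it, and neither the abbreviation nor a mutation or transgene is explained there. RNA from 2 animals was pooled for each sample, and each sample was hybridised to 1 Affymetrix MG_U74Av2 array. The 8 groups held 4 arrays each, except male soy HCM and female soy HCM, which held 3 each, 30 arrays in all. The labels do not say which animals entered a pool, and p-values measure the spread between pools, not between single mice. Ventricle is a mixture of cells, so a lower level may reflect fewer cells of a type or less RNA per cell, and these cannot be told apart.

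The measured cardiac muscle markers, 8 of the 10 listed, included Myl2, the brightest of all genes, and Myh6, at the 99.9 percentile. The summed linear level of these markers itself moved with diet and genotype, from 31228 to 40042 on the soy wild-type arrays, 43654 to 46695 on soy HCM, 45198 to 51391 on casein wild-type and 53931 to 58300 on casein HCM, and its part in the results was not tested. Together, the spiked-in controls also separated the arrays by diet and genotype. Dap, a bacterial transcript spiked in before labelling, had a mean log2 level of 7.51 on the 8 casein HCM arrays (7.18 to 8.07) and 4.21 on the other 22 (4.03 to 4.70). The log2 ratio of 2 hybridisation controls, BioD over BioC, was 2.35 to 2.45 on soy HCM, 1.56 to 1.86 on soy wild-type, 1.59 to 1.75 on casein HCM, and either 2.17 to 2.44 or 0.50 to 0.63 on casein wild-type. The casein wild-type arrays thus fell into set A (the high ratio, replicates 1 and 2 of each sex) and set B (replicates 3 and 4), of 4 arrays each. Between these, 2 members were higher and 4 lower in set A (limma adjusted p below 0.05, against 7.65% and 4.94% of all genes). The median difference, set A minus set B, was -0.16 log2 units over the members and -0.0007 over all genes. The mean over the 46 genes averaged 8.15 on set A and 8.30 on set B. This ratio alone did not separate soy HCM from set A, or soy wild-type from casein HCM. The array sets were defined as the diet-genotype combinations, with casein wild-type split into sets A and B. By this definition each set held 1 diet and genotype, so the array set and the combination cannot be told apart. Only casein wild-type held more than 1 set, so the spread between sets could be measured there alone. Values with a random block for the set are given beside the counts they change. The 3′ minus 5′ log2 difference of Actb, a measure of RNA length, was -0.04 on average on casein HCM (-0.50 to 0.17) and 0.27 on the other arrays (0.10 to 0.44), and its part was not tested.

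Promoter letters of 5 members are shown because these genes mark the contrast between the constitutive and the inducible catalytic subunits, together with the interferon-inducible activator gene Psme1. They are RefSeq sequences of mouse build GRCm38.p6, written 5′ to 3′ on the gene's own strand, and capitals mark a match to a searched motif. The first 4 are the 120 bases just before the annotated start: Psmb5 at chr14:54617996-54618115 (minus strand), Psmb6 at chr11:70525237-70525356 (plus), Psmb8 at chr17:34198075-34198194 (plus) and Psmb9 at chr17:34187331-34187450 (minus). The last is a stretch of 30 bases around the start of Psme1, at chr14:55578484-55578513 (plus).
Psmb5: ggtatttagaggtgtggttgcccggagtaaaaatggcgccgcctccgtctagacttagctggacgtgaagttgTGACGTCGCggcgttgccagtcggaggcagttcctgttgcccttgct
Psmb6: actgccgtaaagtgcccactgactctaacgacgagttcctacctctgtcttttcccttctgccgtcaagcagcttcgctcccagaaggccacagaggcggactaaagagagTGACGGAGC
Psmb8: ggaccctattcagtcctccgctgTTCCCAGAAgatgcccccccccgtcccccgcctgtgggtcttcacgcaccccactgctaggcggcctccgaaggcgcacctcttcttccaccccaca
Psmb9: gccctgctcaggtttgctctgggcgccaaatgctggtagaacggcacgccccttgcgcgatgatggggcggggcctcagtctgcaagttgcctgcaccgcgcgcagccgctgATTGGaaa
Psme1: tgcaggtttcgagctgtgcTTTCGCTTTCc

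In Psmb5 and Psmb6 the capitals mark TGACNNNGC, the core of the antioxidant response element, which lay 47 to 39 and 9 to 1 bases before the start. Both constitutive catalytic genes with a promoter entry held it, as did 4 other members, 6 of 42 member windows (14.3%) against 12.4% of all 32851 windows of 300 bases. In Psmb8 the capitals mark TTCNNNGAA, the gamma-activated site, 97 to 89 bases before the start, found in 7.14% of member windows and 8.30% of all. In Psmb9 they mark CCAAT on the opposite strand, read here as its reverse complement, 8 to 4 bases before the start, found in 35.7% of member windows and 37.4% of all. The starts of Psmb9 and of Tap1, a peptide transporter of the MHC class I pathway, are on opposite strands of chromosome 17 with 225 bases between them, so their windows overlap. In Psme1 the capitals mark the core of the interferon-stimulated response element, on the opposite strand 10 to 19 bases after the start. It was found in 11.9% of member windows (5 of 42) and 3.44% of all. The other members with this core were Psmb3, Psmd4, Psmd9 and Psmg4, and none of the 3 inducible catalytic windows held it. Psmb10 had an entry but no match to a searched motif, and its letters are not shown. Both strands were searched in every window, 39 of the 46 members had an entry, and a match describes letters only.

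The inducible catalytic subunits were higher in HCM than in wild-type ventricles on casein and not on soy. Psmb8, the inducible counterpart of Psmb5, had log2 levels of 6.64, 7.19 and 8.30 (lowest, median and highest of 8 arrays) on soy wild-type, 6.77, 6.98 and 7.34 (6 arrays) on soy HCM, 6.81, 7.21 and 7.41 (8 arrays) on casein wild-type, and 7.93, 8.14 and 8.43 (8 arrays) on casein HCM. Every casein HCM array was above every casein wild-type and soy HCM array, and the single soy array that reached this level was female soy wild-type replicate 2. On casein, Psmb8 was higher in HCM by 0.98 ± 0.14 log2 units (SE), 1.97-fold (limma adjusted p = 2.31e-06), while on soy the difference was -0.21 ± 0.15 (adjusted p = 0.339), or -0.05 without female soy wild-type replicate 2. The difference between these differences, the diet by genotype interaction, was 1.19 ± 0.21 (adjusted p = 4.76e-05).

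Psmb9, the inducible counterpart of Psmb6, had log2 levels of 6.81, 7.03 and 7.87 on soy wild-type, 6.67, 6.81 and 7.09 on soy HCM, 7.06, 7.23 and 7.63 on casein wild-type, and 7.85, 7.90 and 8.49 on casein HCM (lowest, median, highest). Again all casein HCM arrays exceeded all arrays of casein wild-type and soy HCM, and female soy wild-type replicate 2 was the highest soy array. On casein it was higher in HCM by 0.73 ± 0.12 (adjusted p = 8.02e-06). On soy the value was -0.30 ± 0.13 (adjusted p = 0.0790), or -0.19 without female soy wild-type replicate 2, and it passed the threshold, at -0.34, without male soy wild-type replicate 3. The interaction was 1.03 ± 0.17 (adjusted p = 2.00e-05).

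Psmb10, the inducible counterpart of Psmb7, had the smallest p of the 46 genes for HCM on casein. Its log2 levels were 8.59, 9.04 and 9.41 on soy wild-type, 8.83, 8.95 and 9.11 on soy HCM, 8.97, 9.13 and 9.33 on casein wild-type, and 9.81, 9.84 and 9.92 on casein HCM. No array of another group reached the lowest casein HCM array. The HCM difference was 0.71 ± 0.07 on casein (adjusted p = 2.69e-09) and -0.05 ± 0.07 on soy (adjusted p = 0.626), with an interaction of 0.77 ± 0.10 (adjusted p = 9.07e-07).

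Of the constitutive catalytic subunits, Psmb6 and Psmb7 differed by diet. Psmb6, which carries the caspase-like site, had log2 levels of 8.62, 9.13 and 9.39 on soy wild-type, 8.96, 9.21 and 9.30 on soy HCM, 9.47, 9.59 and 9.91 on casein wild-type, and 9.63, 9.79 and 9.99 on casein HCM. Both casein combinations lay above both soy combinations, without overlap between arrays. Casein exceeded soy by 0.57 ± 0.08 in wild type (adjusted p = 3.10e-06) and by 0.64 ± 0.09 in HCM (adjusted p = 7.05e-07), and the HCM difference was 0.08 ± 0.09 on soy and 0.16 ± 0.08 on casein, neither past the threshold (adjusted p = 0.532 and 0.126). With set A as the only casein wild-type arrays, the HCM difference on casein was 0.29 and passed (adjusted p = 0.0145).

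Psmb7, the trypsin-like subunit, was also higher on casein in both genotypes. Its log2 levels were 8.56, 8.89 and 9.16 on soy wild-type, 8.84, 9.01 and 9.17 on soy HCM, 9.19, 9.42 and 9.78 on casein wild-type, and 9.32, 9.42 and 9.63 on casein HCM. Casein exceeded soy by 0.53 ± 0.08 in wild type (adjusted p = 2.89e-06) and 0.45 ± 0.08 in HCM (adjusted p = 3.53e-05), and the HCM differences were 0.09 ± 0.08 on soy and 0.02 ± 0.08 on casein (adjusted p = 0.429 and 0.854). The diet by genotype interaction was 0.07 ± 0.12 for Psmb6 and -0.07 ± 0.11 for Psmb7 (adjusted p = 0.662 and 0.625).

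Psmb5, the chymotrypsin-like subunit, was the least settled of the catalytic genes. Its log2 levels were 7.36, 8.48 and 8.84 on soy wild-type, 8.20, 8.36 and 8.56 on soy HCM, 7.46, 8.57 and 8.98 on casein wild-type, and 8.63, 8.84 and 9.05 on casein HCM. The casein wild-type arrays spread widest: set A was lower than set B by 0.83 ± 0.19 (limma adjusted p = 0.00584). The HCM difference on casein was 0.44 ± 0.17 (adjusted p = 0.0376), but 0.02 against set B alone, 0.85 against set A alone, and not past the threshold with array sets as a random block (adjusted p = 0.160) or with arrays centred on their medians (0.42, adjusted p = 0.0532). It was also lost without any 1 of 7 arrays, at 0.27 without male casein wild-type replicate 2, 0.36 and 0.38 without female casein wild-type replicates 1 and 2, 0.42 and 0.43 without male casein HCM replicates 2 and 4, and 0.42 without either of female casein HCM replicates 3 and 4. The other Psmb5 probe set was lower in HCM on casein, at -0.36 ± 0.07.

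**Figure D1:**
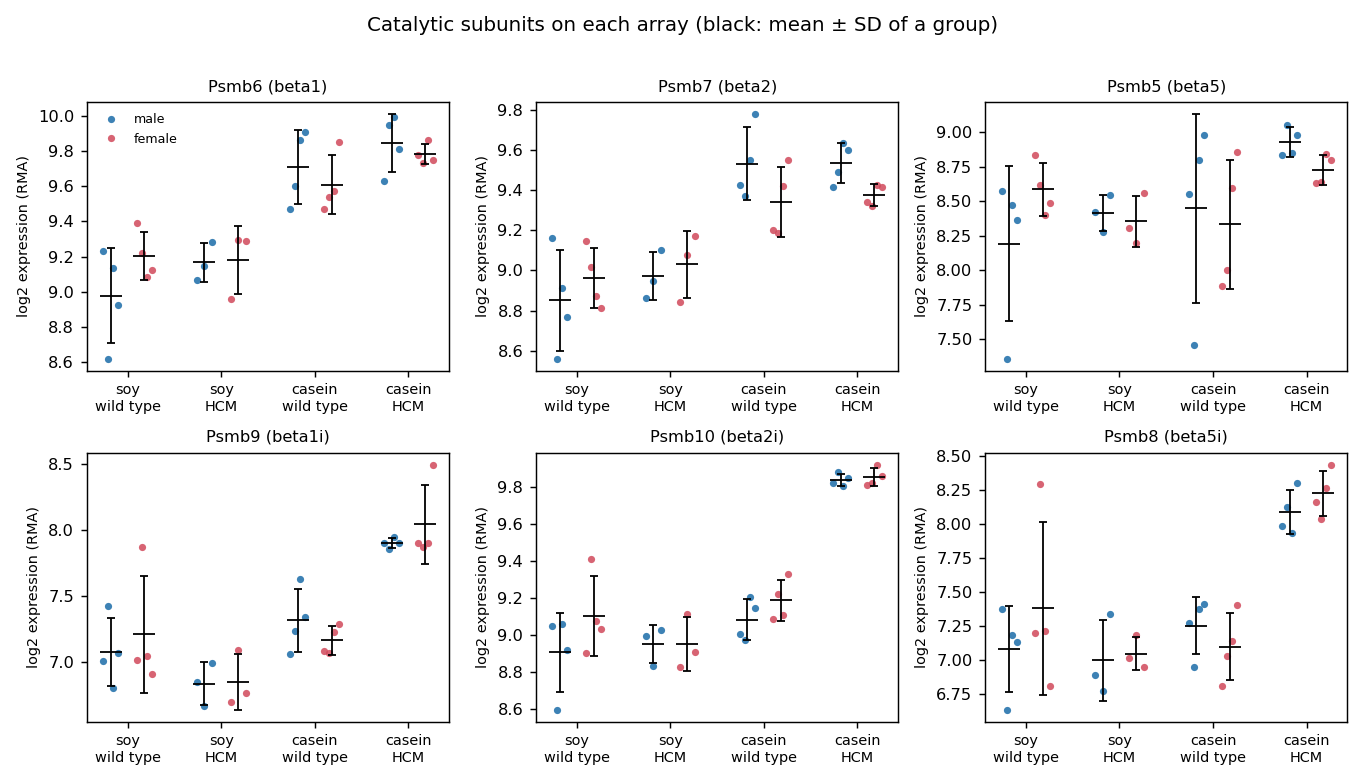
Log2 expression (RMA) of the 6 catalytic beta subunits on each array, constitutive genes above their inducible counterparts; points are single arrays (blue male, red female), placed by diet and genotype, and black bars give the mean ± SD of each of the 8 groups. Psmb9, Psmb10 and Psmb8 are high on the casein HCM arrays (Psmb10 at 9.81 to 9.92), whereas Psmb6 and Psmb7 are high on both casein combinations.

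Taking the 46 genes, HCM ventricles on casein showed 28 higher and 3 lower than wild-type at an adjusted p below 0.05, where 49.6% of all genes were called, 26.9% higher and 22.7% lower. The median difference was 0.29 log2 units over the members and 0.01 over all genes. Of the 17 core subunits 13 were higher and none lower. Of the 20 genes named for the regulatory particle (Psmc1 to Psmc6 and the Psmd genes), 10 were higher and 2 lower (Psmd3 and Psmd9). For 16 members every casein HCM array lay above every casein wild-type array, as for 8.77% of all genes, and for 2 every array lay below, as for 6.31%. With array sets as a random block, 23 members were called higher and 3 lower, and 29.3% of all genes were called.

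The alpha ring, which gates the core, had 6 of 7 genes higher in HCM on casein, and the 7 differences ran from 0.19 to 0.85. Psma6 was the largest, with log2 levels of 9.02, 9.42 and 9.66 on soy wild-type, 9.29, 9.64 and 9.78 on soy HCM, 9.46, 9.82 and 10.01 on casein wild-type, and 10.50, 10.67 and 10.76 on casein HCM. The casein HCM arrays stood above all others, and the HCM difference was 0.85 ± 0.09 on casein (adjusted p = 5.28e-09) and 0.20 ± 0.09 on soy (adjusted p = 0.104). Psma1 was higher by 0.72 on casein, from a casein wild-type mean of 6.66 to 7.39, and Psma4, at 0.19, was the alpha gene that did not pass.

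Among the non-catalytic beta subunits, Psmb3, Psmb1 and Psmb4 were higher in HCM on casein and Psmb2 was not called. Psmb3, a structural subunit, had log2 levels of 9.26, 9.60 and 9.75 on soy wild-type, 9.38, 9.43 and 9.63 on soy HCM, 9.74, 10.04 and 10.11 on casein wild-type, and 10.42, 10.61 and 10.73 on casein HCM. Its order was soy HCM and soy wild-type, overlapping, then casein wild-type, overlapping the highest soy wild-type array, then casein HCM with no overlap. The HCM difference was 0.63 ± 0.07 on casein (adjusted p = 2.21e-08) and -0.12 ± 0.07 on soy (adjusted p = 0.237). For Psmb1 a further probe set went the other way, at -0.39 ± 0.05.

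In the regulatory particle, the ATPases Psmc3, Psmc1 and Psmc6 were higher in HCM on casein by 0.64, 0.56 and 0.53, while Psmc2, Psmc4 and Psmc5 were at 0.19, -0.06 and -0.07 and did not pass. All 3 Psmc3 probe sets were higher (0.64, 0.39 and 0.31). Psmc3 was lower in set A than in set B of casein wild-type, by 0.34 ± 0.11. Of the 14 genes named as non-ATPase subunits 7 were higher, among them the lid subunit Psmd13 (0.42), Psmd11 (0.34), which helps join base and lid, and the ubiquitin receptor Psmd4 (0.29). Psmd14, the deubiquitinase of the lid, was at 0.08 and did not pass.

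Psmd3 and Psmd9 fell. Psmd3, a lid subunit, had log2 levels of 8.65, 9.14 and 9.24 on soy wild-type, 9.07, 9.20 and 9.37 on soy HCM, 9.17, 9.28 and 9.42 on casein wild-type, and 8.51, 8.85 and 9.06 on casein HCM. Psmd9, which despite its name works as a chaperone of the base and is not part of the finished particle, had 7.64, 7.94 and 8.08, then 8.19, 8.23 and 8.37, then 7.98, 8.10 and 8.22, then 7.43, 7.73 and 7.94 in the same order. In both genes, all casein HCM arrays were below all casein wild-type arrays. The HCM differences on casein were -0.44 ± 0.07 for Psmd3 (adjusted p = 7.54e-06) and -0.37 ± 0.07 for Psmd9 (adjusted p = 4.75e-05). On soy, Psmd9 was higher in HCM by 0.36 ± 0.07 (adjusted p = 0.000812; 0.0729 with array sets as a random block), without overlap between arrays, and Psmd3 was at 0.11 ± 0.08 (adjusted p = 0.297).

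**Figure D2:**
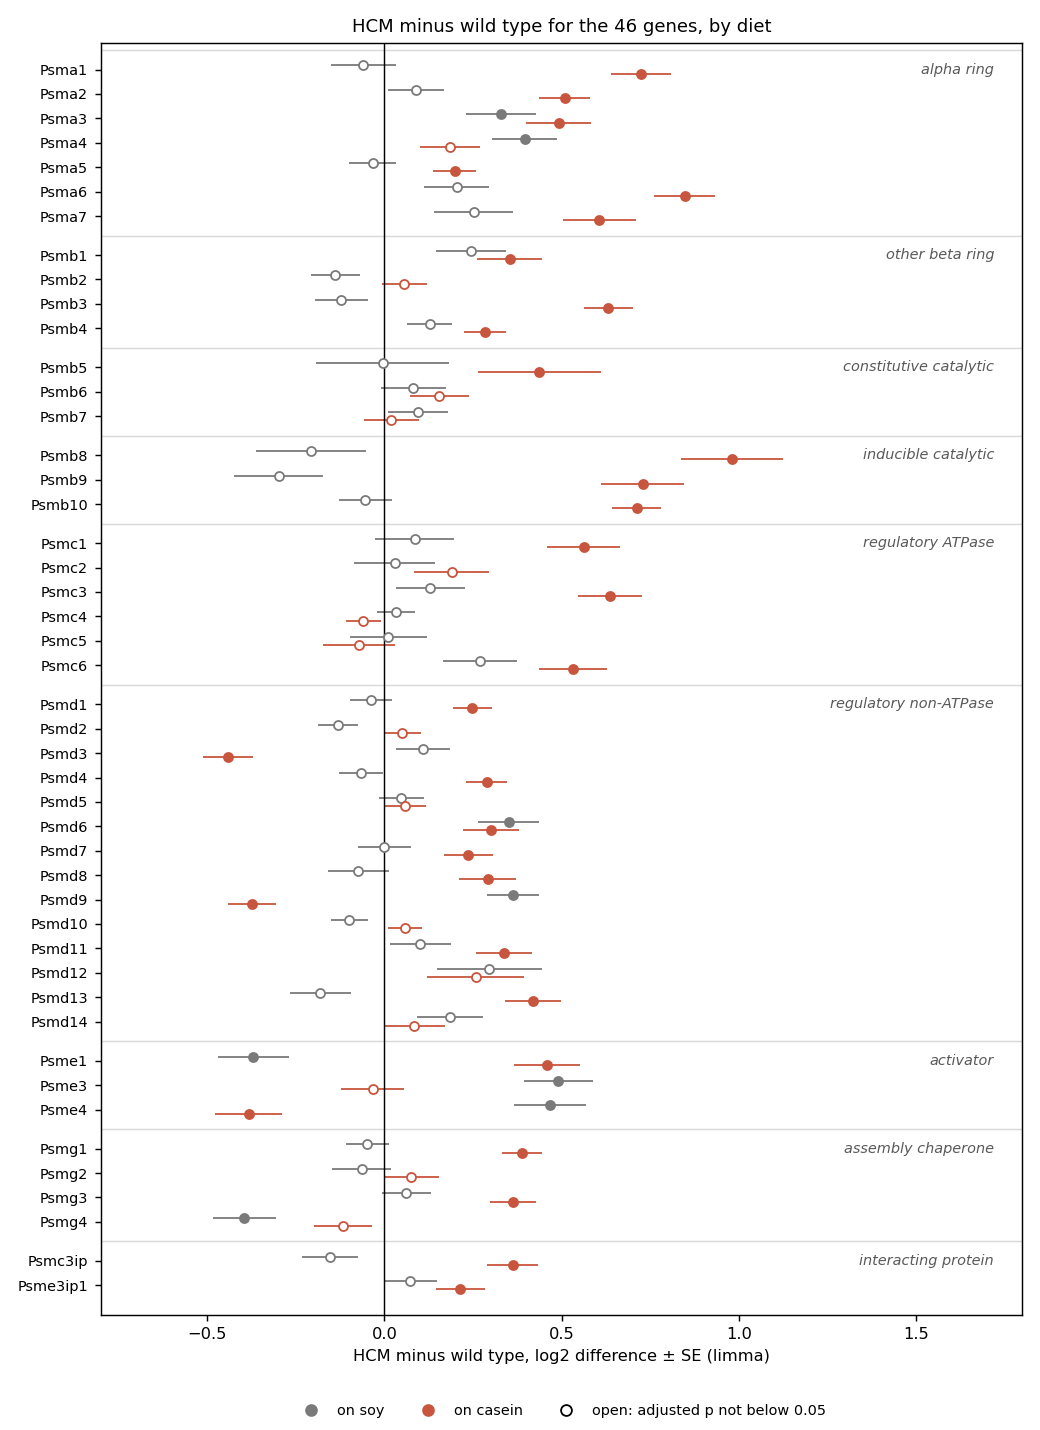
HCM minus wild type for each of the 46 genes, as log2 difference ± SE from limma, on soy (grey) and on casein (red), ordered by role; filled points passed an adjusted p below 0.05. On casein 28 genes are filled to the right of 0 and 3 to the left, and on soy 6 and 2.

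On soy, 6 members were higher and 2 lower in HCM (background 25.0% of all genes, 12.3% higher and 12.7% lower), with a median of 0.04 log2 units against -0.01 over all genes. The higher ones were the activators Psme3 and Psme4, the alpha subunits Psma4 (0.40) and Psma3 (0.33), Psmd6 (0.35), a lid subunit, and Psmd9, and the lower ones were the chaperone Psmg4 and the activator Psme1. Psmg4, which pairs with Psmg3 in building the alpha ring, was at 7.94, 8.11 and 8.37 on soy wild-type and at 7.64, 7.70 and 7.84 on soy HCM, without overlap, a difference of -0.40 ± 0.09 (adjusted p = 0.00205). With array sets as a random block only Psme3 remained of these 8 (adjusted p = 0.0377, with 3.14% of all genes called). On soy each genotype was 1 set, so the spread between sets came from casein wild-type and was not measured on soy. The count was 13 when male soy wild-type replicate 1 was left out, with 28.6% of all genes called in that fit. Psma3 did not pass without male soy HCM replicate 3 (0.29).

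Male soy wild-type replicate 2 had the lowest mean over the 46 genes, 7.63, where the next lowest array of any group had 7.998. Without it, 10 members were called in HCM on soy (6 higher and 4 lower; 24.2% of all genes). For 2 members, Psme3 and Psmd9, every soy HCM array lay above every soy wild-type array, as for 4.24% of all genes, and for 1, Psmg4, every array lay below, as for 4.07%. In males 31 members were above 0 in the soy HCM difference, or 25 without that array, and in females 18 were. On casein the counts were 40 in males and 39 in females. The share of all genes above 0 is not given for these counts.

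**Figure D3:**
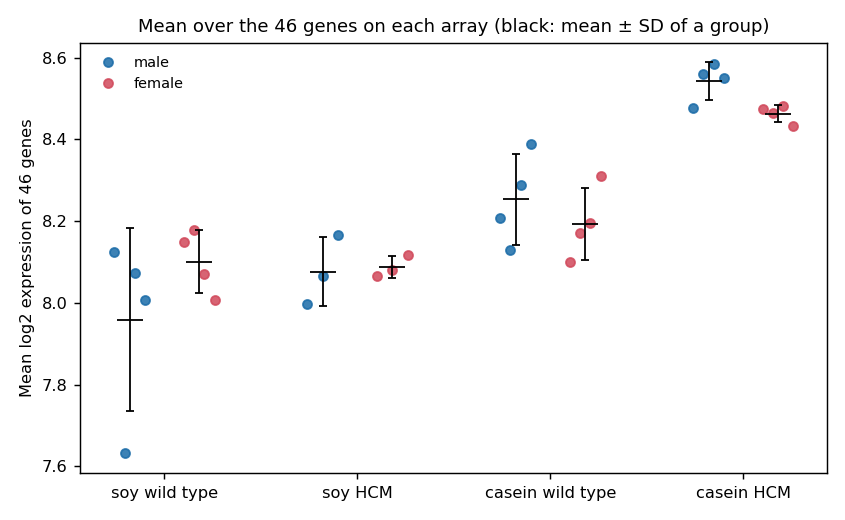
Mean log2 expression of the 46 genes on each array, by diet and genotype (points are arrays, blue male and red female; black bars are the mean ± SD of a group). The 8 casein HCM arrays lie between 8.43 and 8.58, above all others, and male soy wild-type replicate 2 is the lowest point at 7.63.

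The 3 activators moved in different directions. Psme1 encodes a subunit of the interferon-inducible activator ring and had log2 levels of 8.62, 9.15 and 9.38 on soy wild-type, 8.47, 8.76 and 8.97 on soy HCM, 9.02, 9.49 and 9.65 on casein wild-type, and 9.74, 9.91 and 10.03 on casein HCM. The casein HCM arrays were above all others, and every soy HCM array was below every casein array. The HCM difference was 0.46 ± 0.09 on casein (adjusted p = 0.000180) and -0.37 ± 0.10 on soy (adjusted p = 0.00843), with an interaction of 0.83 ± 0.14 (adjusted p = 1.84e-05). The soy call was lost with array sets as a random block (adjusted p = 0.173). A second, dimmer Psme1 probe set gave -0.33 ± 0.11 on casein, and with the mean of both probe sets the differences were 0.07 on casein, -0.05 on soy and 0.12 for the interaction, none past the threshold.

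The partner of Psme1 in that ring, Psme2, was measured only on probe sets annotated also to Psme2b, so it is no member. The brighter of these had means of 7.85 ± 0.25 (SD, n = 8) on soy wild-type, 7.93 ± 0.12 (n = 6) on soy HCM, 8.23 ± 0.11 (n = 8) on casein wild-type and 8.68 ± 0.15 (n = 8) on casein HCM. It was not tested.

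Psme3, which forms a nuclear activator ring of its own, was lowest on soy wild-type. Its log2 levels were 6.60, 7.15 and 7.29 there, 7.499, 7.59 and 7.70 on soy HCM, 7.25, 7.52 and 7.85 on casein wild-type, and 7.38, 7.49 and 7.58 on casein HCM. All soy HCM arrays were above all soy wild-type arrays, and the other 3 combinations overlapped. The HCM difference was 0.49 ± 0.10 on soy (adjusted p = 0.000644) and -0.03 ± 0.09 on casein (adjusted p = 0.783), with an interaction of -0.52 ± 0.13 (adjusted p = 0.00196). Set A of casein wild-type was lower than set B by 0.45 ± 0.10, and against set B alone the casein difference was -0.26 and passed (adjusted p = 0.0159).

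Psme4, a large activator linked to the breakdown of acetylated histones, had the most negative interaction of the 46 genes. Its log2 levels were 8.10, 8.59 and 9.01 on soy wild-type, 8.84, 9.11 and 9.22 on soy HCM, 9.05, 9.25 and 9.56 on casein wild-type, and 8.50, 8.92 and 9.30 on casein HCM. On casein HCM the 4 female arrays had 8.78, 8.64, 8.50 and 8.63 and the 4 male arrays 9.08, 9.07, 9.30 and 9.17, so the sexes did not overlap there. HCM was higher on soy by 0.47 ± 0.10 (adjusted p = 0.00160; 0.0942 with the random block) and lower on casein by a difference of -0.38 ± 0.09 (adjusted p = 0.00133), and the interaction was -0.85 ± 0.14 (adjusted p = 1.55e-05). The diet by sex interaction of Psme4 was -0.48 ± 0.14, which did not pass after adjustment (adjusted p = 0.192).

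**Figure D4:**
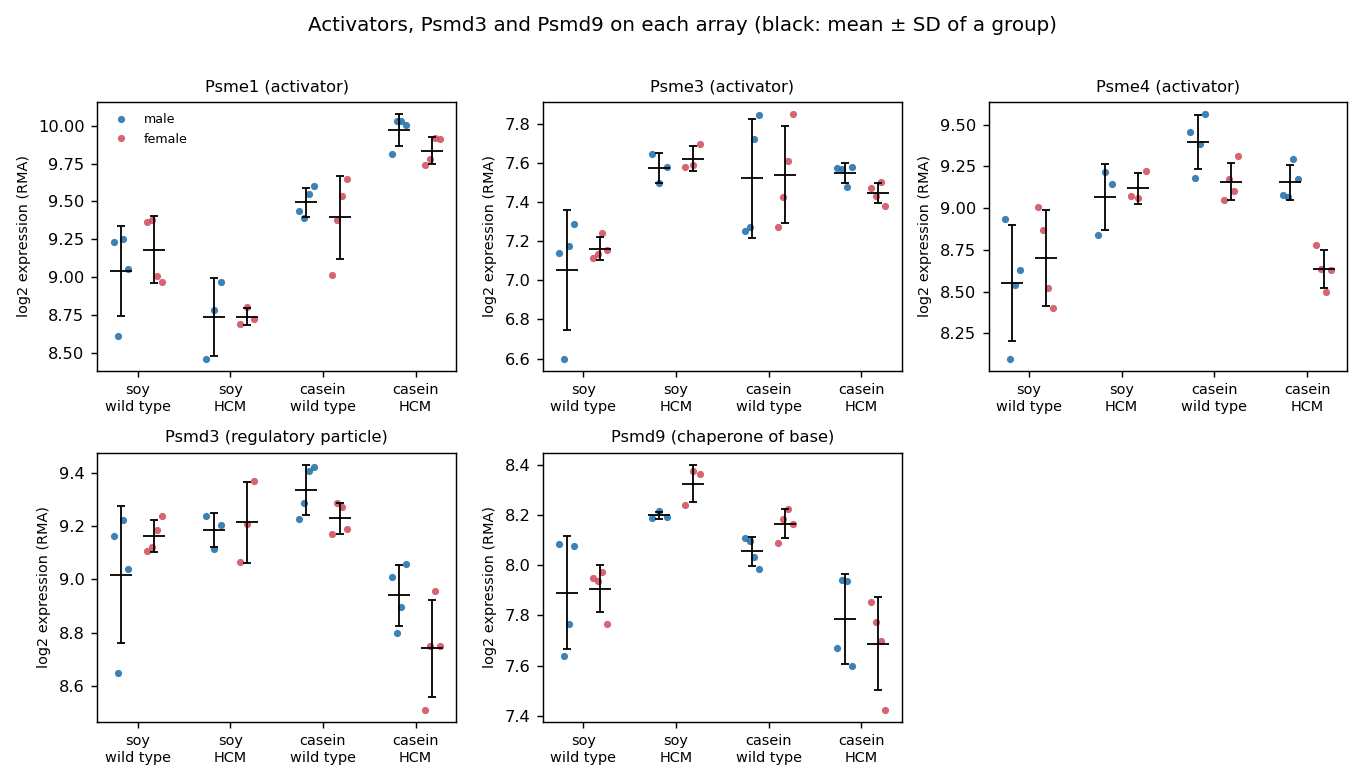
Log2 expression (RMA) of the activators Psme1, Psme3 and Psme4 and of Psmd3 and Psmd9 on each array, by diet and genotype (blue male, red female; black bars are the mean ± SD of a group). Psme1 is highest on casein HCM, Psme3 is lowest on soy wild-type, and Psmd3 and Psmd9 are lowest on casein HCM.

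Tested over all members, the HCM difference on casein exceeded that on soy for 18 and was below it for 4 (diet by genotype interaction, adjusted p below 0.05; background 45.1% of all genes, 25.0% and 20.1%), with a median of 0.23 log2 units against 0.03 over all genes. With array sets as a random block the counts were 11 and 4, and 22.6% of all genes were called. Without male soy wild-type replicate 2, 31 members were called in either direction, and the share of all genes in that fit is not given here. Psmb8, Psmb9, Psme1, Psma1 (0.78), Psmb10 and Psmb3 (0.75) had the 6 largest positive values, and Psme4, Psmd9, Psmd3 and Psme3 were the 4 negative ones. None of the constitutive catalytic genes passed, and all of the inducible ones did. Psmb5, at 0.44 ± 0.26 (adjusted p = 0.161), passed at 0.58 without male soy wild-type replicate 2 and at 0.86 with set A only. Between the diets, 2 members were called in the same direction and 3 in opposite directions (Psmd9, Psme1 and Psme4), of 8 called on soy and 31 on casein. The share of all genes called on both diets is not given here, so these counts have no background.

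Casein HCM was the combination with the highest mean for 35 of 46 members, against 33.7% of all genes. Soy HCM was the highest for 8, casein wild-type for 2 (Psmd3 and Psme4) and soy wild-type for 1 (Psmg4). The shares of all genes were 23.8%, 17.8% and 24.7%. The lowest mean was on soy HCM for 19 members (26.2% of all genes) and on soy wild-type for 17 (19.9%).

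Most members were higher on casein than on soy in each genotype. In wild type, 27 members were higher and 1 lower on casein than on soy (background 47.0% of all genes, 21.6% higher and 25.4% lower), with a median of 0.22 log2 units against -0.02 over all genes. In HCM, 31 were higher and 2 lower (background 62.1%, 31.9% higher and 30.1% lower), with a median of 0.45 against 0.01. Arrays did not overlap for 9 members above and none below in wild type (6.01% and 5.45% of all genes), and for 29 above and 2 below in HCM (20.6% and 17.2%). All 17 core subunits were higher on casein in HCM, by 0.27 to 1.15, and 11 of 17 in wild type. Of the members called in both genotypes, 22 had the same direction and Psmd3 and Psmd9 opposite ones, out of 28 called in wild type and 33 in HCM. The share of all genes called in both genotypes is not given here.

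The genes with the largest diet differences were not the same in wild type and HCM, though both lists held activator, alpha ring and ATPase genes. In wild type the largest were Psme4 (0.65 ± 0.09), Psma4 (0.61), Psmb6 (0.57), Psmb7 (0.53), the ATPase Psmc2 (0.44) and Psma7 (0.43). The Psmc2 call was lost with set A as the only casein wild-type arrays (0.29, adjusted p = 0.0655). By contrast, the inducible subunits Psmb8, Psmb9 and Psmb10 were at -0.06, 0.10 and 0.13 and not called, although Psmb10 passed at 0.18 without female soy wild-type replicate 2 and at 0.20 with arrays centred on their medians. In HCM the largest were Psme1 (1.16 ± 0.10), Psmb3 (1.15 ± 0.07), Psmb8 (1.13 ± 0.15), Psmb9 (1.12 ± 0.13), Psma6 (1.05 ± 0.09) and Psmc3 (0.93). The dimmer Psme1 probe set passed in the opposite direction there, at -0.74 ± 0.12, and the mean of both was 0.21 (adjusted p = 0.0121). Psmb5 was at 0.00 ± 0.17 in wild type, but passed at 0.42 (adjusted p = 0.0212) with set B as the only casein wild-type arrays. In HCM it was at 0.44 ± 0.19 (adjusted p = 0.0413), a call lost with the random block (adjusted p = 0.173), with quantile normalization added (0.35) and with the replicate block (0.37), and its mean over both probe sets was -0.08. It was lost, too, at 0.40 to 0.44 without any 1 of 8 arrays (male and female soy HCM replicates 1 and 2, male casein HCM replicates 2 and 4, female casein HCM replicates 3 and 4).

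Psmg3, an assembly chaperone, was the single member lower on casein in wild type. It had log2 levels of 8.65, 8.79 and 8.95 on soy wild-type and 8.13, 8.34 and 8.66 on casein wild-type, which overlapped by the highest casein array, and the difference was -0.44. It also differed between set A and set B of casein wild-type (0.26 ± 0.08). The other Psmg3 probe set was at -0.12 ± 0.06 for casein minus soy in wild type and did not pass (limma adjusted p = 0.118). In HCM the lower members were Psmd9 (-0.52 ± 0.07) and Psmd3 (-0.36 ± 0.08).

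Psme1 and Psme3 were higher on casein in wild type by 0.33 ± 0.09 and 0.42 ± 0.09 (adjusted p = 0.00418 and 0.000296). The Psme1 call was lost with the random block (adjusted p = 0.0610) with quantile normalization added (0.18) and with the mean of its 2 probe sets (0.09, adjusted p = 0.256), and with set A as the only casein wild-type arrays neither passed (0.20 each). In wild type, 18 members were called with array sets as a random block (17 higher and 1 lower), where 27.3% of all genes were, and 17 with set A only (14 higher and 3 lower), where 35.4% were.

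**Figure D5:**
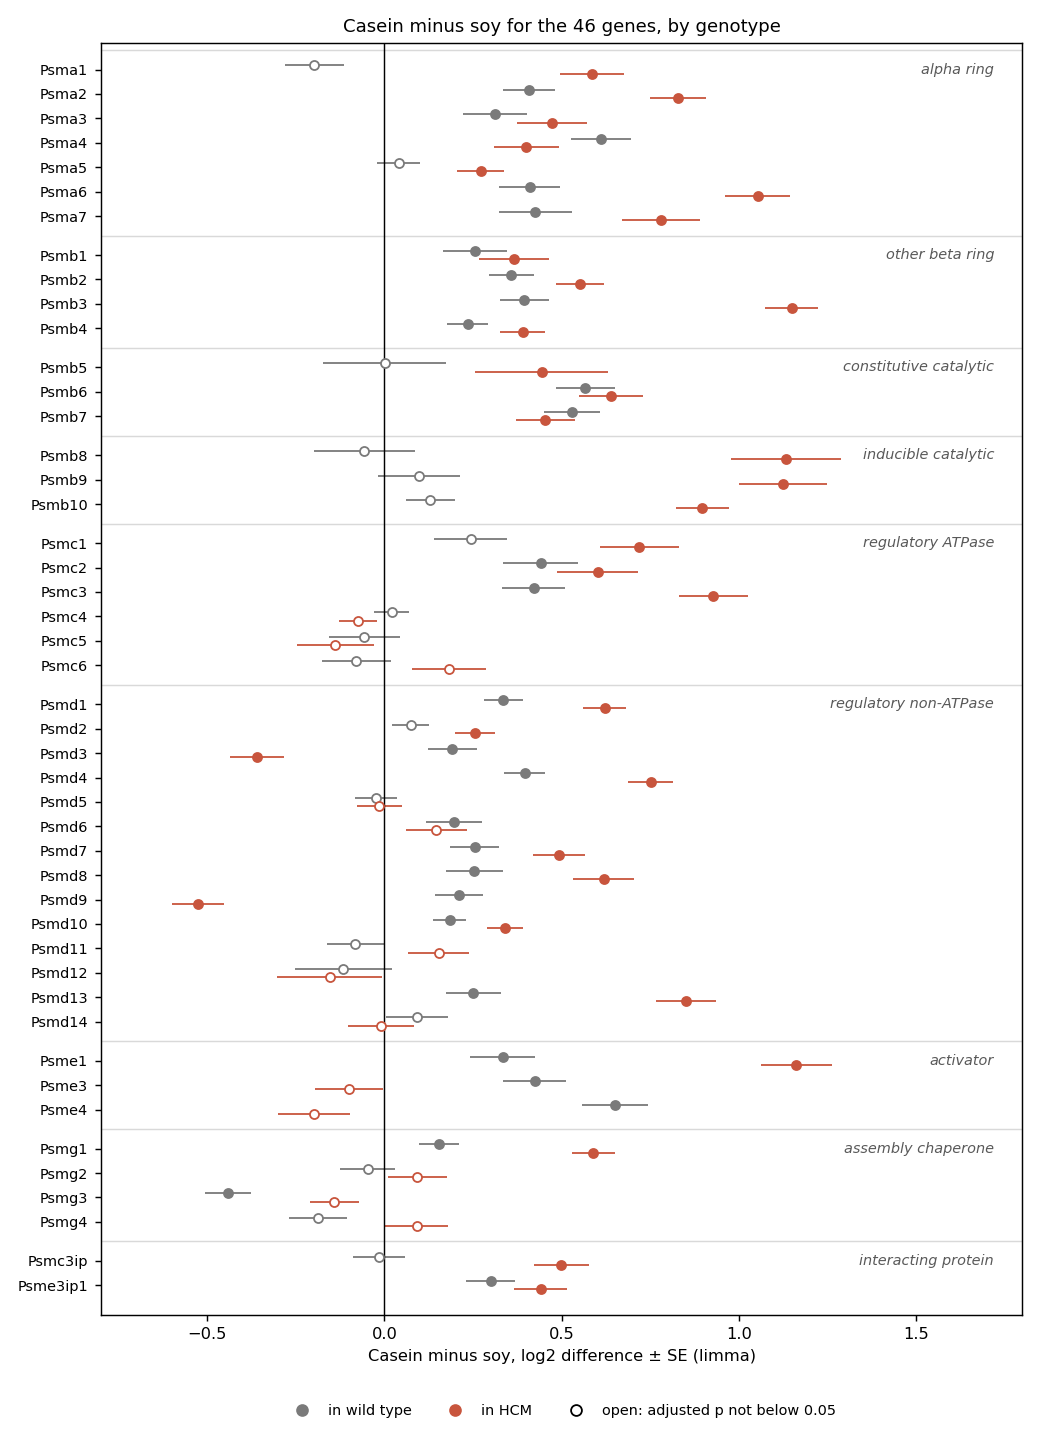
Casein minus soy for each of the 46 genes, as log2 difference ± SE from limma, in wild type (grey) and in HCM (red), ordered by role; filled points passed an adjusted p below 0.05. In HCM every core gene is filled to the right of 0, and in wild type the 3 inducible catalytic genes are open and lie near 0.

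Averaged over sexes and diets, 23 members were higher and 2 lower in HCM (background 34.1%, 18.7% higher and 15.4% lower), with a median of 0.14 log2 units against 0.00 over all genes. Psma6 (0.53 ± 0.06), Psma7 (0.43), Psma3 (0.41), Psmc6 (0.40), Psmb8 (0.39) and Psmc3 (0.38) were the largest, and Psmg4 (-0.26) and Psmd3 (-0.17) were the lower ones. With the random block 14 were called higher and none lower, 11.6% of all genes being called, and Psmb8, Psmg4, Psmd3 and Psme3 were among the calls lost. Averaged over sexes and genotypes, 33 members were higher and 2 lower on casein (background 62.9%, 30.9% higher and 32.0% lower), with a median of 0.34 against 0.00, led by Psmb3 (0.77), Psme1 (0.75), Psma6 (0.73) and Psmc3 (0.67). The lower members there were Psmg3 (-0.29) and Psmd9 (-0.16), the latter not past the threshold with arrays centred on their medians (-0.10) or with the random block (adjusted p = 0.0903). In that average Psme3 was at 0.16 ± 0.07 (adjusted p = 0.0332) and did not pass without any 1 of 6 arrays, at 0.14 to 0.16 (male casein wild-type replicates 3 and 4, female casein wild-type replicate 4, male soy HCM replicate 2, female soy HCM replicates 1 and 2), nor with quantile normalization added (0.14), with the random block (adjusted p = 0.137) or with set A only (0.05).

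Sex made no called difference in these genes. Female minus male gave 0 of 46 members (background 0.267%, 0.182% higher and 0.0848% lower), with 1 at an unadjusted p below 0.05, Psmg1 at -0.09 (adjusted p = 0.505). The HCM by sex interaction gave 0 (background 0%), with 2 at an unadjusted p below 0.05, and the diet by sex interaction gave 0 (background 0%), with 11. These backgrounds are for the adjusted p, and the share of all genes at an unadjusted p below 0.05 is not given here. The median HCM by sex interaction was -0.07 log2 units over the members and -0.002 over all genes. For diet by sex the medians were -0.14 and -0.006. The smallest adjusted p in the diet by sex interaction was that of Psme4.

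Of 33 listed proteasome partner genes 17 were measured. On soy, 7 were higher and 1 lower in HCM (12.3% and 12.7% of all genes). Txnl1 at 0.41 ± 0.08, Zfand5 at 0.36 ± 0.12 and Bag6 at 0.18 ± 0.06 were among the higher ones. The lower one was the ubiquitin ligase Ube3a at -0.41 ± 0.12. On casein, 4 were higher and 4 lower in HCM (26.9% and 22.7% of all genes). Txnl1, a thioredoxin-like protein bound to the regulatory particle, was higher by 0.58 ± 0.08 and the deubiquitinase Uchl5 by 0.38 ± 0.06. The chaperone Bag6 was at -0.47 ± 0.06 and Zfand5 at -0.39 ± 0.11. Nfe2l1, a transcription factor of the subunit genes, was higher on soy (0.25 ± 0.08) and lower on casein (-0.20 ± 0.07). For diet, 8 were higher and 5 lower on casein on average (30.9% and 32.0% of all genes). They were led by Sem1, a small lid subunit (0.79 ± 0.06), and by Ubqln2, a ubiquitin shuttle (-0.49 ± 0.08). The maturation factor Pomp was higher by 0.46 ± 0.04.

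Of 15 listed antigen presentation genes 11 were measured. In HCM on casein 7 were higher and 1 lower (26.9% and 22.7% of all genes). The higher ones were led by the MHC class I genes B2m (1.05 ± 0.13), H2-K1 (0.68 ± 0.13) and H2-D1 (0.57 ± 0.13). The lower one was the lectin chaperone Canx at -0.69 ± 0.06. Tap1, which shares the promoter stretch with Psmb9, was higher by 0.46 ± 0.12. On soy none was higher and 1, Tap2, was lower (-0.48 ± 0.11), against 12.3% and 12.7% of all genes. The interferon response genes Irf1 and Irf9 did not pass on casein (0.17 and 0.13).

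Leukocytes express the inducible subunits as well, and their markers are given for that reason. Of the 18 leukocyte markers measured, of 19 listed, 7 were higher and 4 lower in HCM on casein (26.9% and 22.7% of all genes). They were led by Ctss (0.95 ± 0.16) and Lyz2 (0.73 ± 0.17). On soy, none was higher and 2 were lower (12.3% and 12.7% of all genes). Their summed linear level ranged from 2141 to 2633 on casein HCM, 2086 to 2272 on casein wild-type, 2242 to 2367 on soy HCM and 2385 to 3102 on soy wild-type, so every soy wild-type array lay above every soy HCM and casein wild-type array, and the casein HCM arrays overlapped each of the other 3 combinations. The defining marker Ptprc was higher by 0.23 and Cd3e lower, at -0.25, on casein. Detection calls were not used here, so no marker was called absent. The part of leukocytes in the Psmb8, Psmb9, Psmb10 and Psme1 differences was not tested. In the diet comparison, 1 leukocyte marker was higher and 9 lower on casein in wild type (21.6% and 25.4% of all genes). In HCM, 6 were higher and 5 lower (31.9% and 30.1% of all genes). Markers of other tissues are given for HCM on casein, where 26.9% of all genes were higher and 22.7% lower. Of these markers, 3 of 4 atrial ones were higher, and 4 of 7 fibroblast ones were higher and 1 lower. For endothelium 3 of 7 were lower, and for skeletal muscle 2 of 8 were higher and 1 lower. None of 3 red cell markers passed, 1 of 4 adipocyte markers was higher, and of 4 liver markers 1 was higher and 1 lower.

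Of the 12 further probe sets of members, 11 belonged to genes that passed in HCM on casein, and 4 of these passed in the same direction, 4 in the opposite one (for Psmb1, Psmb5, Psme1 and Psmg3) and 3 did not pass. For the average diet difference, 8 belonged to genes that passed, of which 4 passed in the same direction, 2 in the opposite one (Psmb1 at -0.10 and Psme1 at -0.45) and 2 did not. Within HCM, 8 belonged to genes that passed for diet, of which 4 passed in the same direction, 3 in the opposite one (for Psmb1, Psmb5 and Psme1) and 1 did not. For diet in wild type, 8 belonged to genes that passed, of which 4 passed in the same direction and 4 did not pass. In the diet by genotype interaction, 4 belonged to genes that passed. Of these, 1 passed in the same direction, 2 in the opposite one (for Psme1 and Psmg3) and 1 did not. Probe sets of 1 gene can read different stretches of its transcripts or another transcript, and which of these holds was not tested.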

How the data were processed

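Values were log2 expression as deposited, which the authors summarised per probe set (the submitters' processing notes name RMA and Affymetrix Expression Console). No version of either is stated there. RMA includes a normalization between arrays, so differences are relative to the whole array. Of 12488 probe sets, 10833 named 1 gene symbol, 396 several and 1193 none; 66 control probe sets were left out, and 8251 genes remained, each by its brightest probe set. The number of arrays limits the precision.

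Groups followed the labels. A limma (version 3.58.1, R 4.3.3) model with 1 mean per group was fitted to all 30 arrays and 8251 genes (22 residual degrees of freedom), with Benjamini-Hochberg adjustment over all genes and a threshold of 0.05. Named with full statistics were up to 6 members per direction with the largest change past the threshold, the catalytic pairs and Psme1 and Psme3; from other lists up to 4 genes. Psme2 has no probe set of its own and was not tested. The members and lists were chosen with earlier results of these data known.

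The fit was tested on simulated data. Alternatives covered the normalization, the choice of probe set, dim genes, array sets (statmod 1.5.0), replicate numbers and each array left out. Promoters came from RefSeq. Male soy wild-type replicate 2 was left out in an alternative chosen after seeing the data.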

Additional observations from a re-analysis of the deposited data

Results flagged for a closer look

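The HCM difference depended on diet for 22 members, by the test of the diet by genotype interaction (limma, adjusted p below 0.05; background 45.1% of all genes). The casein minus soy values of the HCM effect were 1.19 for Psmb8, 1.03 for Psmb9, 0.83 for Psme1, 0.78 for Psma1, 0.77 for Psmb10, 0.75 for Psmb3, 0.64 for Psma6 and 0.60 for Psmd13. They were 0.52 for Psmc3ip, 0.51 for Psmc3, 0.48 for Psmc1, 0.44 for Psmg1, 0.42 for Psma2, 0.36 for Psmd8, 0.36 for Psmd4, 0.30 for Psmg3, 0.29 for Psmd1 and 0.23 for Psma5. The 4 negative values were -0.85 for Psme4, -0.74 for Psmd9, -0.55 for Psmd3 and -0.52 for Psme3. The other probe sets of Psme1 and Psmg3 passed in the opposite direction to the values given here, at -0.59 and -0.31.

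Among 84 sets of 4 arrays examined (13 genes and the mean over the 46 genes, in 6 groups), 6 had an array far from the other 3, where chance gives about 1 in 20. Female soy wild-type replicate 2 was high for Psmb9 (7.87), female casein HCM replicate 4 was high for Psmb9 (8.49), and female soy wild-type replicate 1 was high for Psmb3 (9.75). Low arrays were male casein HCM replicate 1 for Psme1 (9.81), male casein HCM replicate 3 for Psme3 (7.48) and female soy wild-type replicate 4 for Psmd9 (7.77).

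Outside the comparisons, the spiked-in control Dap exceeded its level elsewhere by 3.30 log2 units on casein HCM arrays. The probe set shared by Psme2 and Psme2b was 0.45 log2 units higher on casein HCM than on casein wild-type.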

How the results depend on the processing

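Counts of called members stayed within 1.5 times of those reported under quantile normalization, arrays centred on their medians, the mean of a gene's probe sets, and without the dimmest 40% of genes, and with casein wild-type set B only. With array sets as a random block, the HCM average gave 14 (from 25), HCM on soy 1 (from 8) and casein minus soy in wild type 18 (from 28), and with casein wild-type set A only the last gave 17; the cause was not tested. Leaving out 1 array at a time, counts ranged from 22 to 27 for the HCM average, 7 to 13 for HCM on soy (13 without male soy wild-type replicate 1, 28.6% of all genes), 30 to 34 for HCM on casein, 34 to 38 for the diet average, 25 to 30 for diet in wild type, 32 to 36 for diet in HCM, 21 to 31 for the diet by genotype interaction (31 without male soy wild-type replicate 2), and 0 to 0 for sex and its 2 interactions. Apart from HCM on soy, the share of all genes called with an array left out is not given, so these ranges have no background. Psmb5 in the diet difference within HCM reversed, to -0.0815, with the mean of its probe sets. The replicate numbers do not pair the arrays: over 99 same-numbered pairs the correlation of deviations ranged from -0.57 to 0.63, with 25 above 0.1. A replicate block gave 25, 8, 32, 35, 30 and 32 called members in the HCM average, HCM on soy, HCM on casein, diet average, diet in wild type and diet in HCM (32.3%, 22.1%, 49.2%, 62.4%, 46.6% and 60.6% of all genes), and 23 in the interaction (44.4%). Arrays give no depth; 42 of 46 members were above the dimmest 40% of genes.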
